A study of Homo sapiens with 13 samples.

Results

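The cytosolic ribosomal protein genes measured on these arrays numbered 28, of 6948 named genes and unnamed features in all. They were chosen by symbol alone: names beginning with RPL or RPS and a number, or with RPLP, together with RPSA, and without the RPS6 kinases, the Y-linked RPS4Y1 and pseudogenes. These symbols had 67 features (spotted cDNA clones), of which 65 carried a value on at least 7 of the 13 arrays and were averaged per gene. The 28 genes comprised 14 of the small subunit and 14 of the large subunit. RPSA was not among the genes analysed here.

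The ratios come from 13 two-colour Lymphochip cDNA arrays of the myeloma cell lines KMS12, H929 and SKMM1, each carrying a doxycycline-inducible short hairpin RNA. On every array RNA of cells with an IRF4 hairpin was labelled with Cy5 and RNA of cells of the same line with a luciferase hairpin (shluc) with Cy3, so a value is the log2 ratio of hairpin over control. IRF4 is a transcription factor on which myeloma cells depend. KMS12 was followed in 3 culture series, here called 1332, 1332b and 2046 after the hairpin constructs shi_1332, shi_1332b and shi_2046 in their labels. Uninduced pairs (day 0, no doxycycline) were hybridised in each series. Pairs kept in 20 ng/ml doxycycline were hybridised at day 3, 5 and 7 in series 1332, and at day 2 and 4 in series 1332b and 2046. The same dose was given for 4 days to H929 (2 repeats) and SKMM1 (1 array), both with shi_2046. Neither of these lines had an uninduced pair. The arrays were grouped as KMS12 uninduced (n = 3), days 2-3 (n = 3), days 4-5 (n = 3) and day 7 (n = 1). The labels do not say whether infected cells were cloned, which promoter drives the hairpin, or whether the repeats were separate cultures, so the p-values cover only the spread between these arrays. A lower ratio from fewer transcript-bearing cells and from less RNA per cell cannot be told apart.

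Ribosomal proteins assemble with ribosomal RNA in the nucleolus into the small subunit, which decodes messenger RNA, and the large subunit, which forms peptide bonds. Plasma cells and myeloma cells secrete immunoglobulin and depend on a high rate of translation. Messages of ribosomal proteins and of many translation factors typically begin with a cytosine followed by a run of pyrimidines, the 5′ terminal oligopyrimidine (TOP) motif, through which mTOR signalling controls their translation together.

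The start sites of members that the results below turn on are printed because most of these genes share this first run of pyrimidines. The windows are from RefSeq on GRCh38.p14, 15 bases before and 15 bases from the annotated start, 5′ to 3′ on the gene's strand, and capitals mark an unbroken pyrimidine run that begins with C at the start itself.
RPS3A, chr4:151099613-151099642, plus strand: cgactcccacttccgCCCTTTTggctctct
RPS18, chr6:33272060-33272089, plus strand: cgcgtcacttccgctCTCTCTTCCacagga
RPS25, chr11:119018329-119018358, minus strand: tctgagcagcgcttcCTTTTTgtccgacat
RPL22, chr1:6199581-6199610, minus strand: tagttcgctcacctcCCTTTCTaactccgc
RPL22L1, chr3:170870181-170870210, minus strand: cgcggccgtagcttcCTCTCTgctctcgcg
RPL10, the second of 3 listed starts, chrX:154398362-154398391, plus strand: caggcggaggagcgcCTCTTTCCCTTCggt
RPLP1, chr15:69452803-69452832, plus strand: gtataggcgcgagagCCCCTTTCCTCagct
RPL9, chr4:39458908-39458937, minus strand: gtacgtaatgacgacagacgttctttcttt
RPL7L1, chr6:42879601-42879630, plus strand: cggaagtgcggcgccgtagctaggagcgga
The run is present in the first 7 of these and not at the annotated starts of RPL9 and RPL7L1. A start with C and at least 4 further pyrimidines was found for 17 of the 22 members with an entry (77.3%), against 1404 of 27305 genes (5.14%). The other members without it were RPL27, RPS29 and RPS4X. Starts moved by a few bases in the annotation would change this count. RPS15A, RPL5, RPL8, RPL37, RPS2 and RPS20 had no entry.

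Motifs were searched on both strands of the 300-base windows, from 250 bases before to 50 bases after the start. The core of the interferon-stimulated response element (GAAA repeated after 2 bases of any kind), to which IRF family proteins can bind, was found in 3 of 22 members (13.6%, RPS9, RPS12 and RPS16) and in 4.38% of all genes with such a window. The composite element (GGAA, 2 bases of any kind, GAAA), at which IRF4 can bind beside an ETS factor, was found in 2 members (9.09%, RPL11 and RPL22L1) and in 3.47% of all genes. The E-box CACGTG, bound by MYC, was found in 1 member (4.55%, RPL7L1) and in 8.77% of all genes. The ETS letters CCGGAAGT were found in 4 members (18.2%, RPL7L1, RPS6, RPS18 and RPS25) and in 4.95% of all genes. These matches describe the letters in these windows.

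The targeted transcript, IRF4, stood at 110% to 128% of control in the 3 uninduced KMS12 pairs. It was at 28.2% to 54% at days 2-3, 55.5% to 62.2% at days 4-5, 59.9% at day 7, 24.5% and 28% in H929 and 23.5% in SKMM1. Its difference from uninduced was -1.59 (SE 0.25) at days 2-3, with an adjusted p of 0.0889 by limma. This became 0.0159 with features on all 13 arrays, 0.00173 without the series 2046 day 2 array and 0.0122 against 0. No gene passed in the comparisons within KMS12 under the main settings, so they place genes by size and spread and name no change. Between 7140 and 14228 features per array carried a value, and the arrays' medians, which were set to 0, had lain between -0.094 and 0.092. The series 2046 uninduced array stood apart: it correlated at -0.33 with the SKMM1 array, the lowest value of any pair, whereas the H929 repeats correlated at 0.62. The 9 of 10 plasma cell markers and 8 of 12 markers of other cells that were measured give ratios, which do not show the level of a marker in a line.

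Before induction, the ribosomal protein messages of hairpin and control cells were near equal in series 1332 and 1332b but not in series 2046. The median over the members was 0.01 in series 1332, with 15 of 28 above 0, and 0.09 in series 1332b, with 22 of 28 above 0. In series 2046 it was 0.83, and 26 of the 26 members with a value lay above 0, from 0.11 for RPS15A to 1.24 for RPLP1, the stalk protein that recruits elongation factors. A median of 0.83 lay at the 96th percentile of all genes on that array. No other array put the member median outside -0.15 to 0.18.

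The small subunit stood at a median of 0.9 on the series 2046 uninduced array and the large subunit at 0.62. Further messages listed as having a TOP start, most of them of translation factors, had a median of 1.01 over 10 genes there. EEF1B2 was at 1.3 and EEF1A1 at 0.94, subunits of the factor that delivers aminoacyl-tRNA, while the poly(A)-binding protein PABPC1 was at -0.72 and the splicing protein HNRNPA1 at -1.29. The mitochondrial ribosomal proteins, which belong to a separate ribosome, had a median of 0.37 over 13 genes, and 22 ribosome assembly factors had 0.24. How often a feature was measured moved with its ratio on this array: features with a value on 7 to 9 arrays had a median of -0.41, those on 10 to 12 arrays 0.01 and those on all 13 arrays 0.37. Of the member features 69.2% had a value on all 13 arrays, against 28.5% of all features. With each of these classes set to 0 separately, the member median on this array was 0.55. The class medians, in the same order, were -0.46, -0.02 and 0.09 on the series 1332 uninduced array. They were -0.03, -0.01 and 0.04 on that of series 1332b. At day 5 of series 1332 they ran the other way, at 0.4, 0 and -0.06, and at day 4 of series 2046 they were -0.05, 0 and 0.05.

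**Figure D1:**
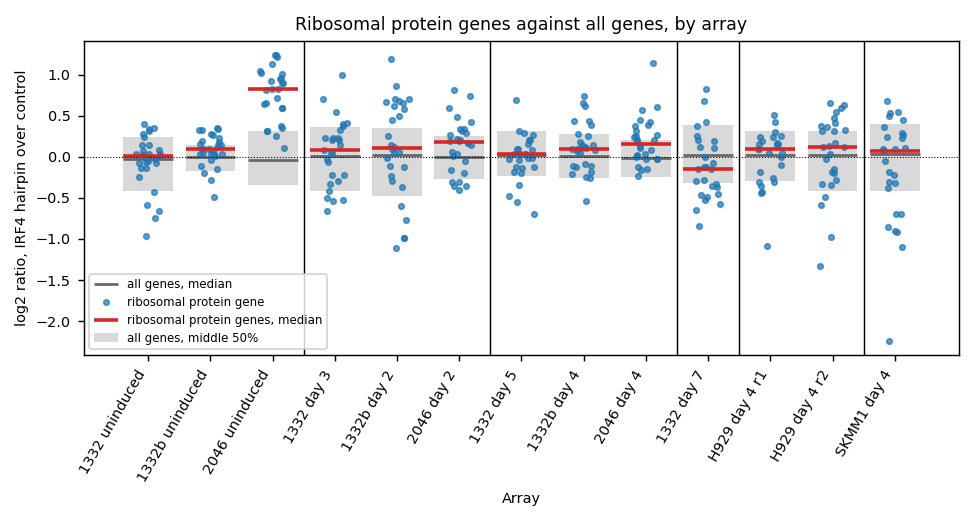
Log2 ratio of the IRF4 hairpin over the luciferase control for the ribosomal protein genes on each of the 13 arrays; each point is a gene, the red line is their median, and the grey box and line give the middle 50% and the median of all genes. The series 2046 uninduced array has a member median of 0.83 with 26 of 26 members above 0, while the other 12 arrays have member medians from -0.15 to 0.18.

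Across the 3 uninduced arrays, the member furthest above 0 was RPS4X, the X-linked small subunit protein, with 0.35, 0.15 and 0.9 in series 1332, 1332b and 2046. RPS12, also of the small subunit, stood at 0.28, 0.07 and 0.95. The highest value of both came from series 2046. The lowest member was RPL7L1, a paralogue of RPL7 that acts in ribosome assembly, with -0.75 in series 1332, 0.09 in series 1332b and no value in series 2046, so its signs were mixed. RPS15A, at -0.58, -0.2 and 0.11, was below 0 in series 1332 and 1332b. In the test of the uninduced level against 0 the member median was 0.33 with 23 of 28 above 0, against -0.03 and 45.9% of all 6696 tested. With every array above 0 there were 12 members (42.9%), against 15.8% of all tested. No gene passed at an adjusted p under 0.05 (0%), 554 had an unadjusted p under 0.05, and the smallest adjusted p among members was 0.588 by limma, shared by RPS4X (0.47, SE 0.18) and RPS12 (0.44, SE 0.17) among others. RPLP1 (0.46, SE 0.24), RPL37A (0.43, SE 0.17) and RPS3 (0.42, SE 0.20) were of like size. Without the series 2046 array the median was 0.07 and 11 of 28 members lay below 0, with RPS4X at 0.25, RPS12 at 0.18 and RPLP1 at 0.08. With features centred by how often they were measured the median was 0.19. A gene-specific dye effect would also stay in a test against 0, since the dyes were not swapped.

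At days 2-3 the members did not shift as a block. Their differences from uninduced ran from -0.95 for RPL22 to 1.06 for RPS15A, and none passed the test. RPL22, an RNA-binding protein of the large subunit that T and B cell development depends on, stood at 0.4, -0.49 and 1.13 uninduced and at -0.52, -0.99 and -0.31 at days 2-3 in series 1332, 1332b and 2046. Every series was lower after induction, though the groups of arrays overlapped, and the fitted difference was -0.95 (SE 0.37), or -0.56 without the series 2046 uninduced array. RPL22L1, its paralogue, stood at -0.06, 0.35 and 0.32 uninduced and at -0.66, -0.37 and -0.3 at days 2-3. Here the groups did not overlap, with a difference of -0.65 (SE 0.31).

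RPL9, a protein near the base of the stalk, stood at 0.24, 0.04 and 0.65 uninduced and at -0.42, -0.77 and -0.16 at days 2-3, with a difference of -0.76 (SE 0.24). RPL5, which carries the 5S ribosomal RNA together with RPL11 and with it can bind MDM2, stood at 0.04, 0.03 and 0.37 uninduced and at -0.5, -0.6 and -0.35 at days 2-3, with a difference of -0.63 (SE 0.21). It was -0.34 with only 1 feature of the gene, or with only the features on all 13 arrays. In both genes the 3 induced arrays lay below all 3 uninduced arrays. RPL11, the partner of RPL5, showed no such separation: it stood at -0.66, 0.04 and 0.59 uninduced and at -0.06, 0.14 and -0.2 at days 2-3. RPS25, a small subunit protein used by some internal ribosome entry sites, stood at 0.07, 0.12 and 1.02 uninduced and at -0.22, -0.29 and 0.01 at days 2-3. Its groups did not overlap either, and the difference was -0.57 (SE 0.27), or -0.26 without the series 2046 uninduced array. RPS3A, a small subunit protein near the messenger RNA exit, was low on a single array, with 0.05, -0.99 and 0.14 at days 2-3 against 0.04, 0.09 and 0.96 uninduced. Its difference of -0.63 was -0.27 without the series 1332b day 2 array and -0.33 without the series 2046 uninduced array.

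In the opposite direction, RPS15A, a small subunit protein, had no value at day 3 in series 1332 and stood at 0.86 and 0.81 at day 2 in series 1332b and 2046, above all 3 uninduced values, with a difference of 1.06 (SE 0.31). RPL10, a large subunit protein added late in maturation, stood at 1, 1.19 and 0.74, above its 2 measured uninduced values of 0.32 and 0.19. The difference was 0.72 (SE 0.26). Its missing uninduced value was that of series 2046, where the measured members had a median of 0.83. RPL8, which lies close to the peptidyl transferase centre, stood at 0.7, 0.5 and 0.21 against 0.04, 0.03 and 0.31 uninduced, so its groups overlapped. RPL13 stood at 0.4, 0.67 and 0.19 against -0.24, -0.04 and 0.59, and its groups overlapped too. Paralogues and processed pseudogenes of ribosomal proteins are close in sequence, so cross-hybridisation to a cDNA clone can enter any of these ratios and was not tested.

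**Figure D2:**
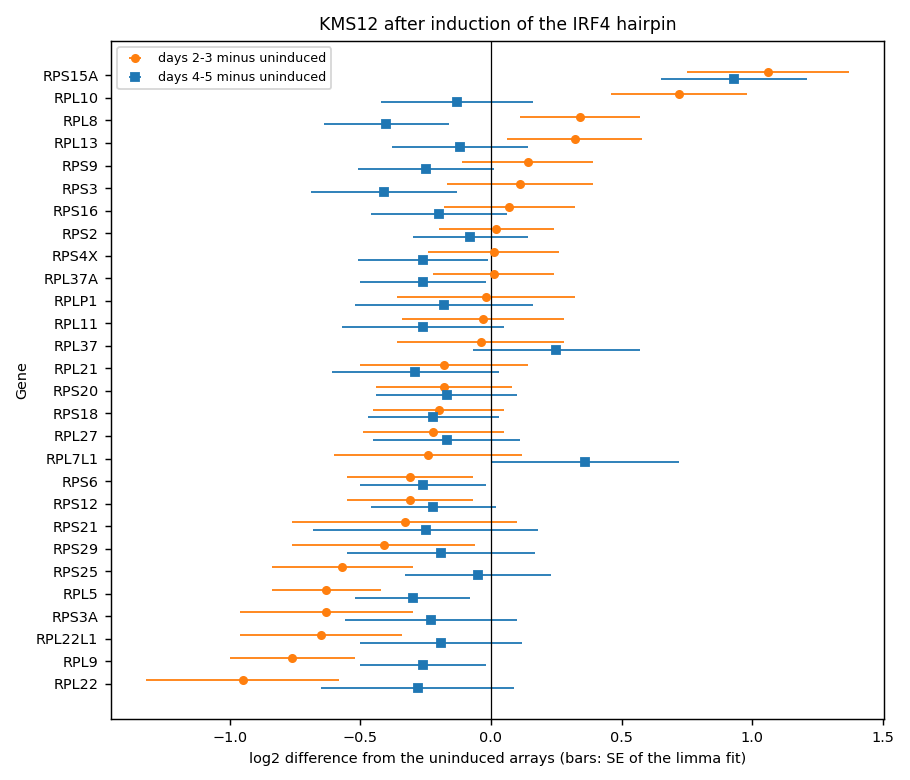
Log2 differences from the uninduced KMS12 arrays for each ribosomal protein gene, at days 2-3 (circles) and days 4-5 (squares), with bars of 1 SE from limma. RPS15A and RPL10 have the highest differences at days 2-3 (1.06 and 0.72), RPL22 and RPL9 the lowest (-0.95 and -0.76), and at days 4-5 25 of 28 members lie a little below 0.

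None of the 28 members passed at days 2-3, as none of the 5980 genes tested did (0%) by limma, whose unadjusted p was under 0.05 for 1341 of them. The smallest adjusted p among members was 0.0979, for RPS15A, followed by 0.11 for RPL9 and 0.129 for RPL5. Of the members, 4 (14.3%) had all measured induced arrays below all uninduced ones, against 18.2% of all genes, and 2 (7.14%) had them above, against 15%. Neither share exceeded the background. The member median was -0.18 with 18 of 28 below 0, against 0.02 and 48.7% of all genes. This median depended on 1 array: without the series 2046 uninduced array it was 0.15 and 9 of 28 lay below 0. It was -0.07 with features centred by how often they were measured. Within series the median difference was 0.19 in series 1332, 0.08 in series 1332b and -0.64 in series 2046.

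RPL22 had the lowest within-series difference of all members in series 1332 (-0.92) and in series 2046 (-1.45). When the induced ratios were tested against 0 with no uninduced arrays, RPL10 (0.98, adjusted p = 0.0225) and RPS15A (0.84, adjusted p = 0.0497) passed, where 2.47% of 6204 genes passed as higher and 7.99% as lower. Without the series 2046 day 2 array, RPL9 passed as lower (-0.91, adjusted p = 0.0304), where 13.7% of 4518 genes did. That array had the highest IRF4 ratio of the 3 at days 2-3, 54% of control.

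At days 4-5 the members were near their control, with medians of 0.03, 0.1 and 0.16 in series 1332, 1332b and 2046. The medians at days 2-3 had been 0.08, 0.11 and 0.18 in the same order. RPS15A remained the furthest from uninduced, at 0.69, 0.28 and 1.14 against -0.58, -0.2 and 0.11. Its groups did not overlap, in a difference of 0.93 (SE 0.28) with an adjusted p of 0.793 by limma. RPL8 was on the other side, at -0.13, -0.54 and -0.15 against 0.04, 0.03 and 0.31, a difference of -0.40 (SE 0.24) with groups that did not overlap. This was -0.21 with centring by how often features were measured and -0.26 without the series 1332b array. RPS3, a small subunit protein at the messenger RNA entry that also takes part in DNA repair, had the lowest difference, -0.41 (SE 0.28), or -0.17 without the series 2046 uninduced array. It stood at -0.12, -0.24 and 0.39 against 0.01, 0.34 and 0.9, and its groups overlapped. RPL5 (-0.30), RPL21 (-0.29) and RPL22 (-0.28) followed on the low side, and RPL7L1 (0.36) and RPL37 (0.25) on the high side, all with SEs of 0.22 to 0.37.

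Compared with uninduced, 25 of 28 members lay below 0 at days 4-5, with a median of -0.22, against 47.1% and 0.03 for the 6521 genes tested. None was called (0%), in a comparison where 375 genes had an unadjusted p under 0.05 by limma. RPL8 was the 1 member with all induced arrays below the uninduced ones, against 6.44% of all genes, and RPS15A the 1 member with all above, against 11%. The count of 25 came from series 2046, where 25 of 26 members were lower at day 4 than uninduced, with a median difference of -0.6. In series 1332 the count was 16 of 27 with a median of -0.05, and in series 1332b 13 of 28 with 0.06. Without the series 2046 uninduced array, the median was 0.04 and 11 of 28 lay below 0. With features centred by how often they were measured the median was -0.06, with 21 of 28 below 0, and with features on all 13 arrays -0.03, with 14 of 21.

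Between days 2-3 and days 4-5 several of the members described above lay nearer 0. These differences share the days 2-3 arrays with the comparison of days 2-3 and uninduced. RPL10 stood at 1, 1.19 and 0.74 at days 2-3 and at 0.05 and 0.19 at day 4 in series 1332b and 2046, with no value in series 1332, a difference of -0.85 (SE 0.26). RPL8 had a difference of -0.74 (SE 0.23), RPS3 one of -0.51 (SE 0.28) and RPL13 one of -0.43 (SE 0.26), which was -0.21 with 1 feature of the gene. RPS9, a small subunit protein at the messenger RNA entry, stood at 0.41, 0.68 and 0.34 and then at 0.03, -0.09 and 0.31. In RPL10, RPL8 and RPS9, 3 members (10.7%), every array of days 4-5 lay below every array of days 2-3, against 10.5% of the 6072 genes tested.

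RPL22 lay the other way, at 0.03, 0.18 and 0.01 after -0.52, -0.99 and -0.31, a difference of 0.68 (SE 0.37). RPL9 stood at -0.02, 0.14 and 0.03 after -0.42, -0.77 and -0.16, a difference of 0.50 (SE 0.24). RPL7L1 had a difference of 0.59 (SE 0.32), RPS25 of 0.52 (SE 0.27) and RPL22L1 of 0.46 (SE 0.31). RPL7L1 was at 0.32 without the series 1332b day 2 array, and RPL22L1 at 0.81 and 0.14 without the series 1332 day 5 and the series 1332b day 4 array. In RPL22, RPL9, RPL5, RPL7L1 and RPS25, 5 members (17.9%), all days 4-5 arrays lay above, against 13.4% of all genes. None was called (0%), where 883 genes had an unadjusted p under 0.05 by limma. The smallest adjusted p among members was 0.256, for RPL10 and RPL8, and 14 members lay on each side of 0.

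At day 7, measured once in series 1332, the member median was -0.15 with 9 of 27 above 0. RPS3 was lowest there at -0.84, and RPL22L1 was highest at 0.83, after -0.7 at day 5 and -0.66 at day 3 in the same series. RPS15A was at 0.68 and RPL22 at 0.38. With 1 array there is no test of day 7.

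The sign of RPS21 and RPLP1 went with the culture series on most arrays. RPS21, a small subunit protein, stood at -0.43, -0.54, -0.48 and -0.57 on the uninduced, day 3, day 5 and day 7 arrays of series 1332. In series 1332b it stood at 0.33, 0.45 and 0.62, and in series 2046 at 1.24, 0.22 and 0.25. All 4 arrays of series 1332 thus lay below 0 and all 6 arrays of the other KMS12 series above it, uninduced arrays included. RPLP1 was at -0.03, 0.23, -0.2 and -0.49 in series 1332, and at 0.18, 0.66 and 0.44 and at 1.24, 0.42 and 0.61 in the others, where it was above 0 throughout. These 2 genes were singled out after their values were seen, and the difference between the series was not tested.

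**Figure D3:**
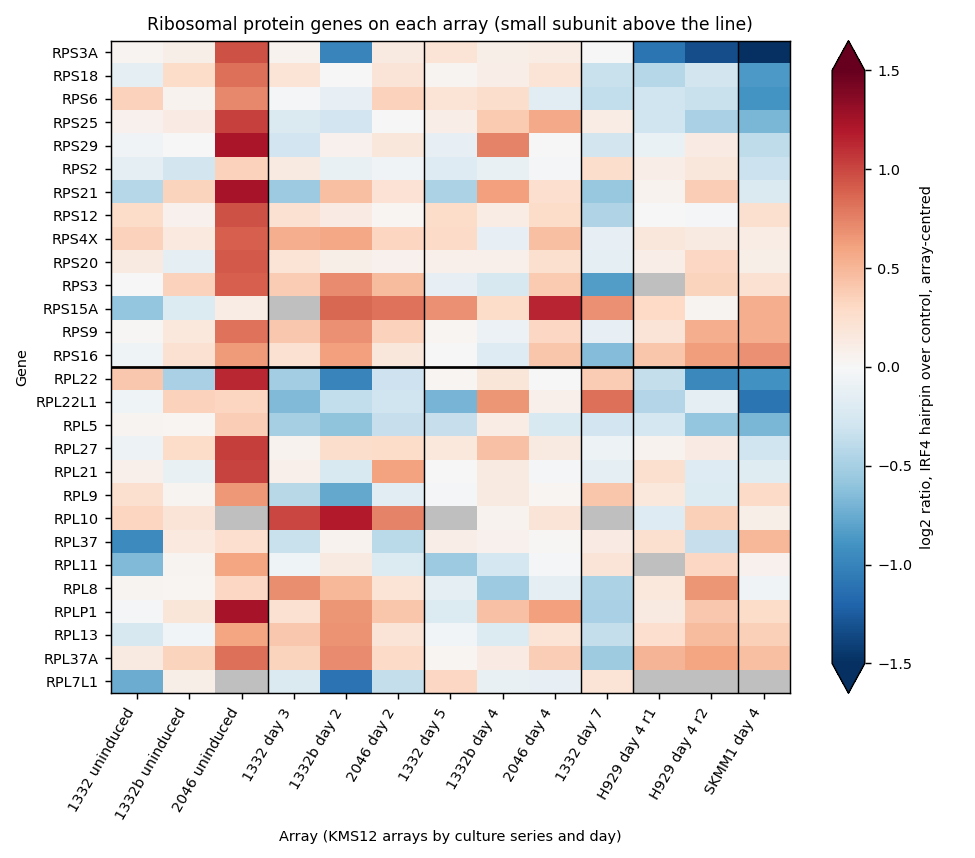
Log2 ratio of the IRF4 hairpin over control for each ribosomal protein gene (rows, by subunit) on each of the 13 arrays (columns); missing values are grey and the colour scale ends at -1.5 and 1.5. RPS3A stands out in H929 (-1.09 and -1.33) and SKMM1 (-2.24), and the series 2046 uninduced array is high in all 26 measured members.

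In the other lines the members were again centred near control, with medians of 0.1 and 0.12 in the H929 repeats and 0.07 in SKMM1, and a few members were far below it. RPS3A stood at -1.09 and -1.33 in H929 and at -2.24 in SKMM1, that is at 47.1%, 39.9% and 21.2% of the luciferase control. In KMS12 it was at 0.2, 0.09 and 0.11 at days 4-5. All 3 arrays of the other lines were thus lower than every KMS12 array, the next being -0.99 at day 2 of series 1332b. RPS6, the small subunit protein phosphorylated by S6 kinases, stood at -0.3 and -0.33 in H929, -0.9 in SKMM1 and -0.16 at day 4 of series 2046 in KMS12. RPL5 stood at -0.26 and -0.58 in H929, -0.69 in SKMM1 and -0.23 in KMS12. These were the 2 members below 0 in all 3 lines (7.41% of 27), against 19.8% of the 5134 genes tested.

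RPL22 was low in H929, at -0.36 and -0.97, and in SKMM1, at -0.91, and stood at 0.01 in KMS12. RPL22L1 was at -1.1 in SKMM1 but at -0.44 and -0.15 in H929 and 0.08 in KMS12. RPS25 stood at -0.3 and -0.49 in H929 and -0.69 in SKMM1, against 0.57 in KMS12. Above 0 in all 3 lines, with the H929 repeats averaged, were 10 members (37%), against 21.3% of all genes: RPL10, RPL13, RPL37A, RPLP1, RPS3, RPS4X, RPS9, RPS15A, RPS16 and RPS20. RPL10 stood at -0.19 and 0.36 in the H929 repeats, so it was above 0 there only as a mean. RPS16, a small subunit protein near the peptidyl site, stood at 0.42, 0.63 and 0.68 in H929 and SKMM1 and at 0.42 in KMS12. RPL37A, a zinc-finger protein of the large subunit, stood at 0.51, 0.59 and 0.45 in H929 and SKMM1 and at 0.37 in KMS12. A dye effect particular to a gene would stay in these ratios. So would a difference between hairpin and control cells from before induction, since H929 and SKMM1 had no uninduced array.

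With 1 value per line for hairpin shi_2046 at day 4, RPS3A had a mean of -1.11 (SE 0.41, adjusted p = 0.303) against 0. RPS16 had the smallest adjusted p among members, 0.278 by limma, for a mean of 0.54 (SE 0.17). RPS15A was at 0.62 (SE 0.23), RPL37A at 0.46 (SE 0.17), RPS9 at 0.41 (SE 0.17) and RPLP1 at 0.39 (SE 0.18). On the low side were RPL22 at -0.52 (SE 0.22), RPS6 at -0.46 (SE 0.21), RPL5 at -0.44 (SE 0.18) and RPL22L1 at -0.44 (SE 0.25). None was called (0%), where 777 of the 5134 genes tested had an unadjusted p under 0.05 by limma. The member median was 0.10, against -0.01 for all genes, and 11 of 27 lay below 0.

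A comparison of H929 with KMS12 at days 4-5 was added after these values were seen. All H929 arrays carried shi_2046 at day 4. Of the 3 KMS12 arrays, 2 carried other constructs and 1 of them was of day 5. Line, hairpin and day thus cannot be fully told apart. Without an uninduced H929 array, a difference present before induction cannot be told apart either. RPS3A was lower in H929 by -1.34 on the log2 scale (SE 0.36, adjusted p = 0.17), and none of 25 members passed, where 2 of the 4758 genes tested did, both lower (0.042%). In 7 members (28%) both H929 arrays lay below all 3 KMS12 arrays, against 23.3% of all genes: RPL22, RPL27, RPS3A, RPS6, RPS12, RPS18 and RPS25. In 4 members (16%) they lay above, against 17.6%: RPL8, RPL13, RPL37A and RPS2. Single-array SKMM1 allows no such test. IRF4 was lower in both of these lines (23.5% to 28% of control) than in KMS12 at days 4-5, and the part of this in the members' values was not tested.

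Several cDNA clones per gene gave a check within each array. For RPS3A all 4 clones showed the same pattern. In SKMM1 they stood at -2.56, -2.33, -2.35 and -1.72, and in the second H929 repeat at -1.4, -1.42, -1.27 and -1.21. On the series 1332b day 2 array they stood at -0.82, -0.97, -1.02 and -1.14, whereas at day 3 of series 1332 they lay between -0.12 and 0.17. The low ratio of RPS3A therefore did not come from 1 clone. The 2 clones of RPS25 were both below 0 in the other lines, at -0.7 and -0.68 in SKMM1 and at -0.62 and -0.35 in the second H929 repeat. They were less close in KMS12, at 0.98 and 0.17 at day 4 of series 2046. At day 5 of series 1332 they stood at 0.35 and -0.15.

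RPS18, a small subunit protein at the head of the subunit, was split between its clones. The first clone stood at -0.96 and -1 in H929, -2.03 in SKMM1 and -0.69 at day 2 of series 1332b. The second clone stood at 0.09, 0.45, 0.32 and 0.68 on the same arrays. The first clone was low on these arrays, as RPS3A was, and the second was not. At day 7 of series 1332 the first clone stood at -0.6, where RPS3A was at 0. The averaged value of RPS18 describes neither clone. RPL5 had 4 clones, of which the second stood at -1.75 at day 3 of series 1332 while the others lay between -0.26 and 0.12. At day 2 of series 2046 the second clone stood at -1.03, the others between -0.2 and -0.08. Uninduced, the second clone stood at -0.18 in series 1332 and at -0.02 in series 2046. The others lay between 0 and 0.22 in series 1332, and between 0.37 and 0.6 in series 2046. Much of the days 2-3 difference of RPL5 in series 1332 thus rested on 1 clone. In series 2046 all 4 clones were lower at day 2 than uninduced. At day 2 of series 1332b all 4 clones lay below 0, from -0.91 to -0.2.

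RPL37, a zinc-finger protein of the large subunit, had 2 clones that stood at 1.16 and -0.67 on the series 2046 uninduced array. RPS2, a small subunit protein at the messenger RNA entry, had 3 clones, at 0.13, -1.3 and 0.21 in SKMM1. Over the 16 genes with more than 1 clone, the median SD between clones was 0.16 on the log2 scale, from 0.06 for RPS9 to 0.55 for RPL37. RPL13, with 11 clones, had 0.24. RPL22, RPL22L1, RPL9, RPL10 and RPS15A each had a single clone and no such check. The SD between clones covers technical spread and differences between the clones of a gene, and not the spread between cultures.

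**Figure D4:**
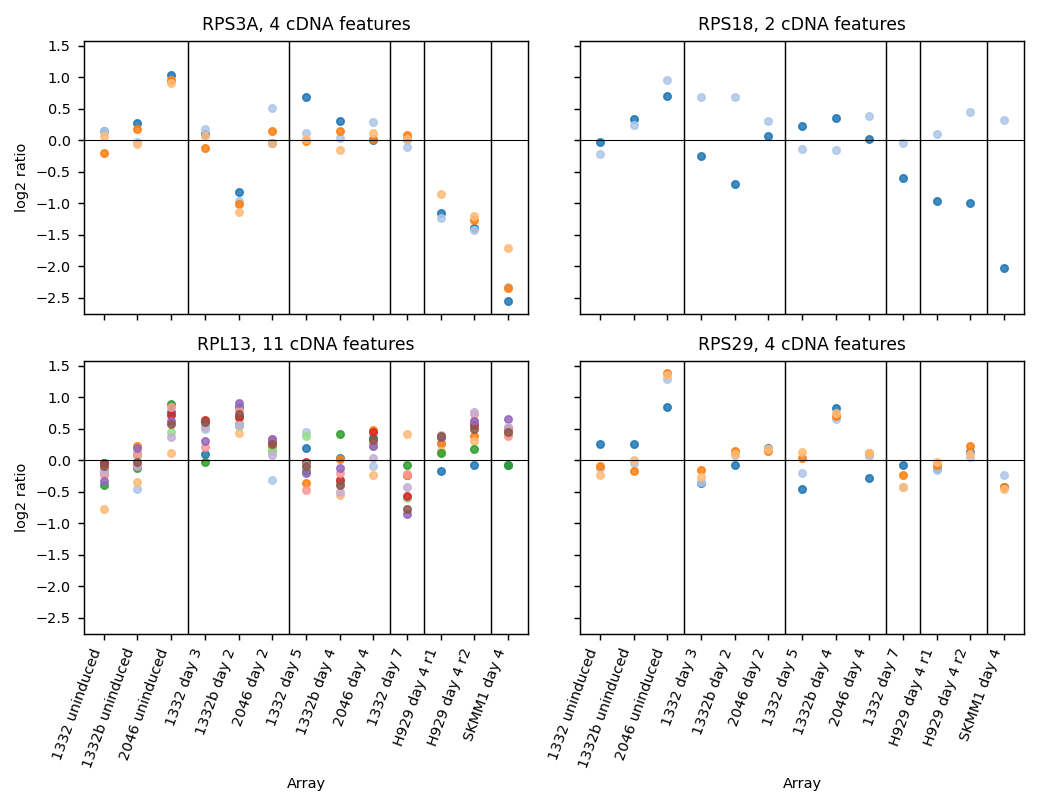
Log2 ratio of the IRF4 hairpin over control for the single clones of RPS3A, RPS18, RPL13 and RPS29, by array; each point is a clone and each colour the same clone within a panel. The 4 clones of RPS3A lie together (-2.56 to -1.72 in SKMM1), while those of RPS18 part there (-2.03 and 0.32).

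Other translation genes are given for comparison. Of 22 further messages with a TOP start, 11 were measured. Over the 8 or 9 genes with a value their median was -0.72 and -0.7 in the H929 repeats and -1.32 in SKMM1, against -0.11, 0.11 and 0.21 in KMS12 at days 4-5. EEF1A1 stood at -0.93 and -1.48 in H929 and -1.32 in SKMM1, and EEF1B2 at -0.97, -0.85 and -1.67. TPT1, the translationally controlled tumour protein, stood at -0.77, -1.41 and -1.55. These values lay on the side of RPS3A and away from the member medians on the same arrays. EEF1D, an exchange factor subunit, stood at 0.23, 0.25 and 0.3, and PABPC1 at 0.12, 0.17 and -0.2. These exceptions were named after their values were seen. Against KMS12 at days 4-5, 6 of 8 tested lay below 0 in H929 with a median of -0.70. None passed, with adjusted p-values of 0.146 for EEF1A1 (-1.39, SE 0.34) and 0.206 for EEF1B2 (-1.05, SE 0.32).

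At days 2-3 the further TOP messages had a median of -0.54 against uninduced, with 7 of 10 below 0, where the members had -0.18. By array, the list's medians in series 1332, 1332b and 2046 were 0.15, 0.04 and 1.01 uninduced. They were -0.04, -0.62 and 0.19 at days 2-3. The highest uninduced median was thus that of series 2046, as for the members. NPM1, a nucleolar chaperone of ribosome assembly, stood at -1.13, -1.15 and -0.38 against 0.38, -0.16 and 1.05 uninduced, a difference of -1.31 (SE 0.34). EIF3E, a subunit of initiation factor eIF3, stood at -1.65, -1.36 and -0.16 against 0.21, -0.04 and 1.29, a difference of -1.54 (SE 0.44). In both genes, 2 of the 10 tested, all days 2-3 arrays lay below all uninduced ones, against 18.2% of all genes. In 1 of the 10 they lay above, against 15%. TPT1 had a difference of -1.07 (SE 0.41), and its groups overlapped. The adjusted p-values of NPM1 and EIF3E were 0.0902 and 0.093 by limma, and 0 of 10 passed. At days 4-5 NPM1 was at -0.37 and -0.45 in series 1332 and 1332b, with no value in series 2046, and EIF3E at -0.5, 0.19 and -0.54.

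Of 73 ribosome assembly factors 24 were measured, and at days 2-3 13 of 21 tested lay below 0, with a median of -0.15. The nucleolar helicase DDX21 stood at -1.53, -2.33 and -0.52 at days 2-3, against 0.2, -0.37 and 0.86 uninduced. Its difference of -1.69 (SE 0.42), that of WDR36 (-1.52, SE 0.32) and that of TAF1D, a subunit of the RNA polymerase I factor SL1 (-1.20, SE 0.26), had an adjusted p of 0.0889. Of 13 mitochondrial ribosomal proteins 11 were tested at days 2-3, of which 7 lay below 0 with a median of -0.23, and MRPL19 had a difference of -1.10 (SE 0.30, adjusted p = 0.0901). None of either list passed in any comparison. The member genes had smaller differences than these few, which were named for the smallest p in their lists, and the differences between lists were not tested.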

How the data were processed

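Ratios were read from the 1 table the authors deposited, which holds a log2 ratio of the IRF4 hairpin (Cy5) over the luciferase control (Cy3) for 15246 features and 13 arrays, with no dye swaps. The base of the logarithm is taken as log2, since values run from -9.78 to 7.51. The sources used here do not give how the authors normalized, subtracted background or blanked spots. Direction follows the dyes in the labels and the series' design text (the channel order varies between arrays, the dyes do not), and conditions of the 2 arrays that correlated at -0.33 differ. Gene names came from the platform annotation (10169 features with 1 symbol, 4 with several, 5073 with none), and sequences from RefSeq, GRCh38.p14.

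Features on at least 7 of 13 arrays (10396) were kept, each array was centred on their median, and features of a gene were averaged, giving 6948 values per array. A model of 6 group means over all arrays was estimated by lmFit and eBayes (limma 3.58.1, R 4.3.3) with two-sided tests, and p-values were adjusted by Benjamini-Hochberg over all genes tested, with a threshold of 0.05. A gene was tested with at least 2 values in each KMS12 window. Differences are on the log2 scale, and a group has all values apart when no array overlaps the other group. The comparison across lines used 1 value per line, with the H929 repeats averaged. Members named were drawn from the 5 lowest and 5 highest in a comparison, and from those of the stalk, the 5S particle and the paralogues. Some whose arrays did not overlap were added to these. Not every such member is named in each comparison. The other lists show the genes with the smallest p. Genes outside this rule are marked as chosen after their values were seen or serve only to show a spread. The members and lists were chosen with earlier results of these data known. The number of arrays limits the precision.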

Additional observations from a re-analysis of the deposited data

Results flagged for a closer look

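In 6 members the H929 repeats and the KMS12 arrays of days 4-5 lay on opposite sides of 0. How many of all genes did so was not counted. In the wider set without overlap between the arrays, H929 was lower in 28% of members against 23.3% of all genes. It was higher in 16% against 17.6%. The difference was tested in the comparison of the lines added after the data were seen. RPS3A lay between -1.33 and -1.09 in H929 and between 0.09 and 0.2 in KMS12, a difference of -1.34 (adjusted p = 0.17). RPS25 lay between -0.49 and -0.3 against 0.1 to 0.57, a difference of -0.75 (adjusted p = 0.274). Its 2 clones stood at 0.35 and -0.15 at day 5 of series 1332, so only their mean was above 0 there. RPL22 lay between -0.97 and -0.36 against 0.01 to 0.18, a difference of -0.74 (adjusted p = 0.428). RPS18, whose clones disagreed, lay between -0.43 and -0.28 against 0.04 to 0.2, a difference of -0.47 (adjusted p = 0.442). In the other direction, RPL8 lay between 0.16 and 0.66 against -0.54 to -0.13, a difference of 0.69 (adjusted p = 0.252), and RPS2 between 0.1 and 0.17 against -0.19 to -0.02, a difference of 0.24 (adjusted p = 0.675). The clones of RPS2 disagreed too: in the second H929 repeat they stood at -0.11, -0.02 and 0.63. None of these differences passed in limma.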

How the results depend on the processing

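No member gene passed under the main settings, and of the values of single genes under alternatives 745 kept direction and side of the threshold, 55 changed sign and 6 newly passed, of which 3 were IRF4 and 3 the members RPL9, RPL10 and RPS15A. The cause of the sign changes was not tested. Spot brightness was not used, and levels of genes cannot be read from ratios. The series names are shared by the windows, but arrays of the same series deviated together only in part (correlations from -0.1 to 0.36, other series -0.38 to 0.42), and a fit with the culture series as replicate block called 0 members and 0 genes in the KMS12 comparisons. In the uninduced level, without centring, 3 members lay below 0, RPS2 was at 0.01 and RPL11 at 0.02; with features on all 13 arrays 3 of 21 lay below 0 and RPL37 was at 0.21, or 0.38 with 1 feature per gene. At days 2-3, 170 genes were called with features on all 13 arrays and 649 against 0, where 2 members were called and 11 lay below 0. There, RPLP1 was at 0.14 with centring by class, 0.07 on 10 or more arrays, 0.14 on all 13 and 0.44 against 0; RPL11 was at 0.06 on 10 or more arrays, and RPS4X at -0.09 without centring and -0.07 with 1 feature. At days 4-5, 14 of 21 members lay below 0 on all 13 arrays and 5 of 28 against 0, where RPS3 was at 0.01, RPL21 0.03, RPL22 0.07, RPS25 0.36, RPLP1 0.29, RPL22L1 0.01 and RPS4X 0.2. Centring by class put RPS2 at 0.04, RPS25 at 0.14, RPL7L1 at -0.04 and RPLP1 at 0.01; 10 or more arrays put RPS2 at 0.01 and RPS25 at 0.04; all 13 arrays put RPS2 at 0.1, RPS25 at 0.14 and RPLP1 at 0.01; and 1 feature per gene put RPS2 at 0.09, RPS25 at 0.19 and RPL37 at -0.06. Between the windows, all 13 arrays put 9 of 21 members below 0 with a median of 0.08, which 1 feature per gene gave too. Across lines the median was 0.04 without centring and 0.03 with H929 repeat 1 alone. Leaving out 1 array at a time, the uninduced count of members below 0 ran from 1 to 11, RPL37 from -0.41 to 0.2, RPS2 from -0.21 to 0.1 and RPL11 from -0.31 to 0.31. At days 2-3 the genes called ran from 0 to 690 and members called from 0 to 1, both highest without day 2 of series 2046. Members below 0 ran from 9 to 23 and the median from -0.34 to 0.15, with 9 and 0.15 without the series 2046 uninduced array. RPS9 ran from -0.01 to 0.39, RPLP1 from -0.27 to 0.36, RPL11 from -0.36 to 0.27, RPL7L1 from -0.41 to 0.04 and RPS4X from -0.15 to 0.23. At days 4-5 members below 0 ran from 11 to 25, RPL21 from -0.51 to 0.05, RPL22 from -0.7 to 0.12, RPS2 from -0.21 to 0.11, RPS25 from -0.22 to 0.26, RPL37 from -0.14 to 0.47, RPLP1 from -0.42 to 0.21, RPL11 from -0.59 to 0.04 and RPL22L1 from -0.51 to 0.16. Between the windows genes called ran from 0 to 365, highest without day 2 of series 2046, and RPLP1 from -0.32 to 0.09. In H929 against KMS12 genes called ran from 0 to 5.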
